A study of Mus musculus with 8 samples.

Results

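The cadherins and protocadherins are the calcium-dependent adhesion proteins of the cell surface, and 57 of their genes, out of 19928 genes measured, are described here in the olfactory mucosa of mice whose olfactory sensory neurons (OSNs) had partly lost the transcription factor Lhx2. Members were chosen by symbol: any gene whose symbol starts with Pcdh, or consists of Cdh and digits, that had an array feature naming it alone. They were 22 beta protocadherins (Pcdhb), 12 other protocadherins and 23 numbered cadherins (Cdh). Where a gene had more than 1 such feature, the brightest on average was used, which applied to 4 members (Cdh18, Cdh24, Pcdh15 and Pcdh9).

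Classical cadherins bind the same cadherin on a neighbouring cell through their extracellular repeats and are anchored to actin through catenins. Protocadherins lack the catenin-binding tail. The clustered ones (Pcdha, Pcdhb and Pcdhg) are chosen in combinations by individual neurons, so that a neuron can tell its own branches from those of others, and in the olfactory system they act as the axons of OSNs sort into glomeruli. The non-clustered delta protocadherins adjust adhesion between axons, and Pcdh10, Pcdh17 and Pcdh19 bind the WAVE complex, which drives actin branching.

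Total RNA from the olfactory mucosa of mice at postnatal day 3, 1 mouse per array, was hybridised to 8 Affymetrix Mouse Gene 1.0 ST arrays. The 4 conditional knockout mice (cKO) were 123Cre:Lhx2fl/fl, carrying the Cre line that begins to act in immature OSNs and 2 floxed Lhx2 alleles. The 4 controls were littermates in which at most 1 allele could recombine: control 1 and control 2 were Lhx2fl/+ without Cre, and control 3 and control 4 were 123Cre:Lhx2fl/+. All mice therefore carried at least 1 floxed allele, on a mixed 129 and C57BL/6J background. Deletion in this model is partial, so that many OSNs keep Lhx2 mRNA, and the mucosa also holds non-neuronal cells. Values are log2 intensities as the authors deposited them, differences are cKO minus control on that scale with their standard error (SE), and a gene is said to have risen or fallen only when its adjusted p in limma, over all 19928 genes, was under 0.01. Whether control samples from the same litters are independent of their cKO littermates was not tested, and fewer cells of a type and less RNA per cell cannot be told apart in such tissue RNA.

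Lhx2 measured 13.03, 12.55, 13.01 and 13.02 in cKO 1 to 4, against 13.14, 13.09, 13.20 and 13.13 in control 1 to 4. All cKO arrays were below all control arrays, but the difference of -0.24 (SE 0.11) did not pass the test (adjusted p = 0.337), and without cKO 2 it was -0.12 (SE 0.05, adjusted p = 0.293). The 17 measured markers of mature OSNs averaged 10.87 to 11.48 on the cKO arrays and 12.00 to 12.06 on the control arrays, and 6 of the 17 fell, among them Omp (difference -0.97, adjusted p = 0.00605). The array medians were 8.82 to 8.83 in cKO and 8.84 to 8.89 in control mice. Over all genes, 412 fell (2.07% of those tested) and 12 rose (0.0602%).

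Only 1 of the 57 members fell, the beta protocadherin Pcdhb1, and none rose. That is 1 of 22 Pcdhb genes, 0 of 12 other protocadherins and 0 of 23 Cdh genes, beside the 2.07% of all genes that fell. At an adjusted p under 0.05, 1 more member was lower, Pcdh11x, so that 2 of 57 were lower beside 5.17% of all genes and 0 were higher beside 0.366%. At an unadjusted p under 0.05, 8 of 57 were lower (9.87% of all genes) and 1 of 57 was higher (5.13% of all genes), and the methods' t-test, run with equal variance, gave 0 lower and 0 higher members after adjustment, where it gave 0 lower and 1 higher of all 19928 genes. In 7 of the 57 members every cKO array lay below every control array, beside 8.43% of all genes, and in none did every cKO array lie above every control array, beside 3.18%.

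The median difference was -0.09 in the Pcdhb genes, -0.04 in the other protocadherins and 0.05 in the Cdh genes, and 0.03 over all genes. The fitted difference was below 0 in 16 of 22 Pcdhb, 7 of 12 other protocadherin and 8 of 23 Cdh genes, beside 37.7% of all genes. Of the 57 members, 31 had a difference within 0.1 of 0 and 47 within 0.2, and 6 lay beyond 0.3 in either direction. The SE of a difference had a median of 0.09 over the members and 0.07 over all genes.

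**Figure D1:**
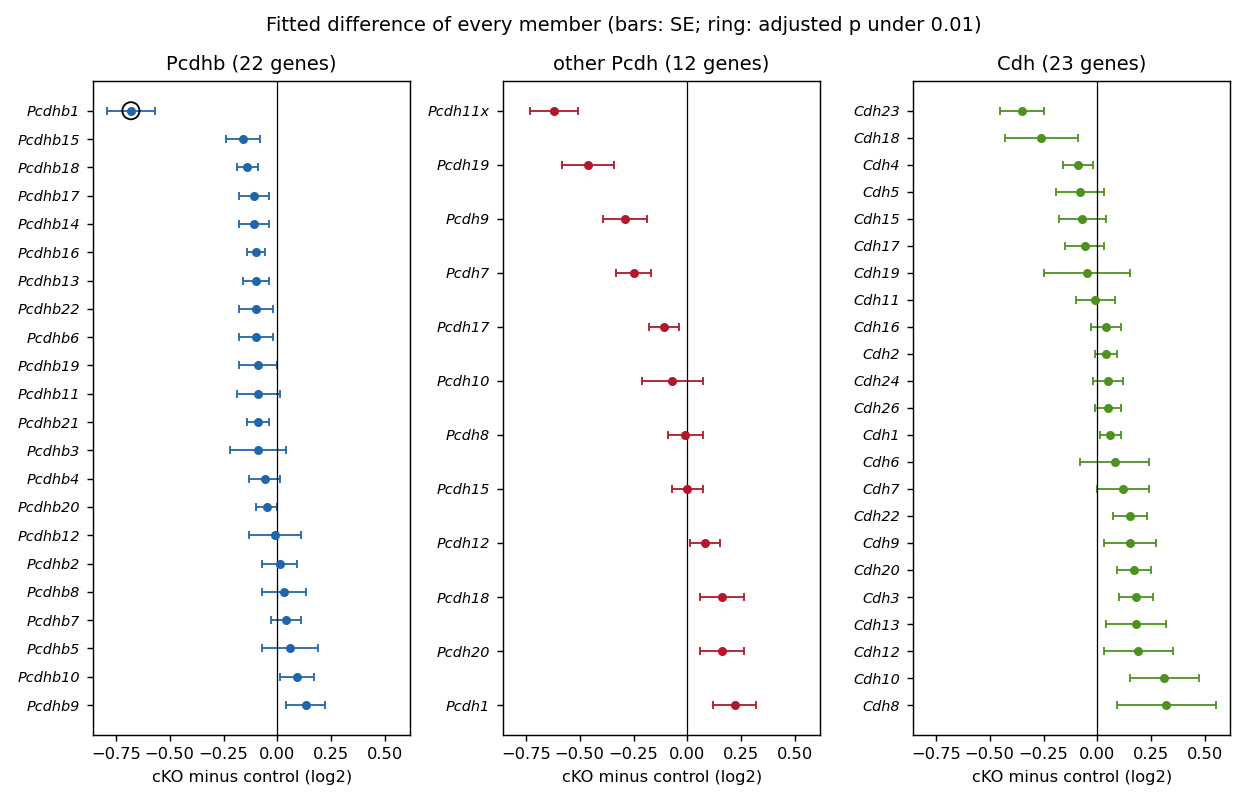
Fitted log2 difference, cKO minus control, of each of the 57 members in 3 panels (Pcdhb, other Pcdh, Cdh), with bars for the SE from 4 arrays a group and a ring around the gene with adjusted p under 0.01. Pcdhb1, at -0.68, stands apart from the other 21 Pcdhb genes, which lie between -0.16 and 0.13.

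The beta cluster is a row of similar single-exon genes on chromosome 18. Pcdhb1, the first of the row, is known as one of the members whose promoter lacks the conserved sequence element shared by most clustered protocadherins. It measured 10.94, 10.35, 10.80 and 10.75 in cKO 1 to 4, against 11.37, 11.43, 11.34 and 11.42 in control 1 to 4. The groups did not overlap, and the control arrays lay within 0.09 of each other while cKO 2 stood below the other cKO arrays. Mean values were 10.71 ± 0.25 in cKO and 11.39 ± 0.04 in control mice (SD, n = 4 each), a difference of -0.68 (SE 0.11, 95% interval -0.93 to -0.43), which is 62.4% of the control abundance (limma adjusted p = 0.00931). By the exact permutation test over the 70 arrangements of the arrays, two-sided, p was 0.0286, the smallest this design allows.

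The call for Pcdhb1 was close to its threshold. Leaving out 1 array at a time, it passed only without cKO 1 or without cKO 2, with differences from -0.76 to -0.56 and adjusted p from 8.58e-04 to 0.0335. The sample titles carry a letter of unstated meaning, which among controls cannot be told apart from genotype (A, 123Cre:Lhx2fl/+ and B, Lhx2fl/+). Among the mice with the letter A (3 cKO, 2 control) the difference was -0.55, and with the letter B (1 cKO, 2 control) it was -1.04. Among male mice (3 cKO, 2 control) it was -0.56 and among female mice (1 cKO, 2 control) -1.04. The only cKO mouse with the letter B and the only female cKO mouse are the same mouse, cKO 2. The letter B and female values thus rest on that 1 array and are not separate results. Between the control genotypes Pcdhb1 differed by -0.02 (123Cre:Lhx2fl/+ minus Lhx2fl/+).

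None of the other 21 Pcdhb genes rose or fell, and their differences lay between -0.16 and 0.13 with a median of -0.09. Pcdhb18 had 8.72, 8.76, 8.83 and 8.79 in cKO mice and 8.95, 8.87, 8.86 and 8.96 in control mice. Its groups did not overlap, with a difference of -0.14 (SE 0.05, adjusted p = 0.163), and Pcdhb16 was alike in that respect, with a difference of -0.10 (SE 0.04, adjusted p = 0.259). Pcdhb15 had the lowest difference after Pcdhb1, at -0.16 (SE 0.08, adjusted p = 0.363), and Pcdhb9 and Pcdhb10 the highest, at 0.13 (adjusted p = 0.58) and 0.09 (adjusted p = 0.658). Because the Pcdhb coding sequences are alike, probes for one may also bind another, which was not tested here.

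**Figure D2:**
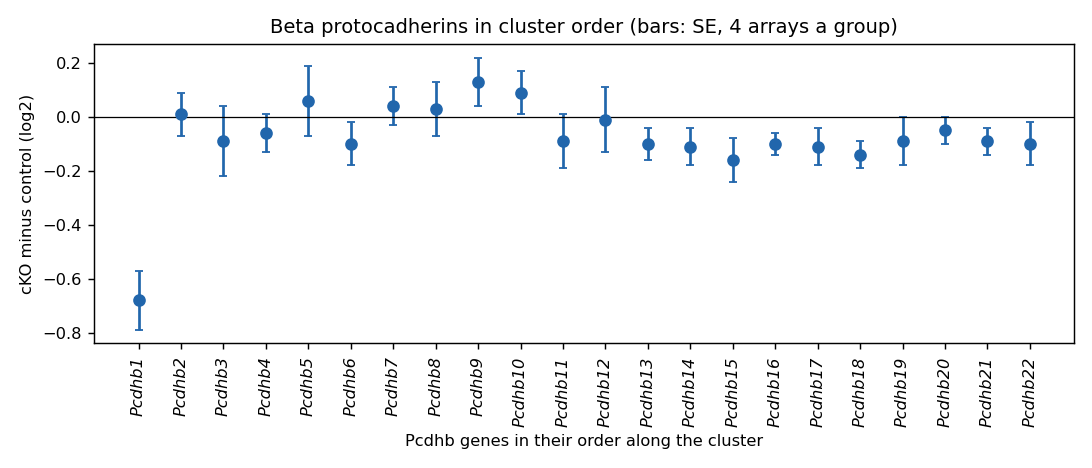
Log2 difference, cKO minus control, of the 22 Pcdhb genes in their order along the cluster, with bars for the SE. Pcdhb1 is at -0.68, and the rest stay between -0.16 and 0.13.

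Along the cluster, the 10 genes from Pcdhb13 to Pcdhb22 all had a fitted difference below 0, from -0.16 to -0.05, whereas 5 of the 11 genes from Pcdhb2 to Pcdhb12 did. The place of that division was chosen after the values were seen, and no test was made of it. The alpha protocadherins, which lie next to the beta genes, share 1 array feature that names 14 genes and so lies outside the members. It read 8.92, 8.95, 8.99 and 8.89 in cKO mice and 9.15, 9.03, 9.26 and 9.23 in control mice. Every cKO value was below every control value, by 0.23 on average, and this feature was in no test. Gamma protocadherins were not analysed here.

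The Pcdhb genes were also compared between mice read as female from their sex-linked mRNAs (cKO 2, control 1 and control 4) and mice read as male, a comparison chosen after the values were seen. The mean of the 21 genes other than Pcdhb1 was 8.44 to 8.51 in the 3 female mice and 8.31 to 8.39 in the 5 male mice, so the sexes did not overlap in this mean. In a limma fit with genotype and sex, 18 of the 22 Pcdhb genes had a fitted female minus male difference above 0, beside 49.9% of all genes, and the median was 0.15, beside 0.00. In 6 of the 22 every female value was above every male value, beside 0.808% of all genes: Pcdhb8, Pcdhb10, Pcdhb11, Pcdhb13, Pcdhb14 and Pcdhb15. None of the 22 passed an adjusted p under 0.01 (0% of all genes were higher in females), and each had an adjusted p of 0.999. At an unadjusted p under 0.05, 6 were higher in females (1.56% of all genes) and 0 were lower (2.56%). The other 4 had a fitted difference below 0: Pcdhb1 at -0.20 (SE 0.10), Pcdhb9 at -0.16 (SE 0.09), Pcdhb7 at -0.14 (SE 0.07) and Pcdhb20 at -0.02 (SE 0.06). The only female cKO mouse was cKO 2, at 10.35 for Pcdhb1. Among control mice Pcdhb1 read 11.37 and 11.42 in females and 11.43 and 11.34 in males. With sex as a block the median cKO minus control difference of the Pcdhb genes was -0.05 in place of -0.09. The 22 genes are alike in sequence and were read on the same mice. Their counts are therefore not independent, and whether the family differs between the sexes was not tested.

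Among the delta-1 protocadherins, 3 of 4 had a fitted difference below 0. Pcdh11x, a neuronal protocadherin on the X chromosome, measured 9.34, 8.91, 9.43 and 9.41 in cKO mice, against 9.84, 9.87, 9.97 and 9.91 in control mice. The groups were separate, and cKO 2 was again the lowest array. Its difference was -0.62 (SE 0.11), or 64.9% of control, and did not pass the test (limma adjusted p = 0.0123). With cKO 2 left out it passed (difference -0.50, adjusted p = 7.62e-04), and it also passed with the letter or the sex of the mice as a fixed block (adjusted p = 0.00305 and 0.00389). With the letter as a random block it did not (adjusted p = 0.0144). Because cKO 2 was both the only cKO mouse with the letter B and the only female cKO mouse, these settings are not separate results. The Pcdh11x difference was -0.53 among male mice (3 cKO, 2 control) and -0.96 among female mice (1 cKO, which was cKO 2, and 2 control).

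Pcdh7, which binds in trans on neurons and other cells, had 11.47, 11.18, 11.40 and 11.49 in cKO mice and 11.65, 11.53, 11.73 and 11.63 in control mice. Each cKO value was below each control value, by 0.25 on average (SE 0.08, adjusted p = 0.122). Pcdh9, a delta-1 protocadherin of neurons, averaged 10.12 ± 0.11 in cKO mice and 10.41 ± 0.19 in control mice (SD, n = 4 each). Its groups overlapped through control 2, at 10.13, and the difference was -0.29 (SE 0.10, adjusted p = 0.178). The remaining delta-1 gene, Pcdh1, an epithelial protocadherin, had a difference of 0.22 (SE 0.10, adjusted p = 0.333).

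The delta-2 group holds Pcdh10, Pcdh17 and Pcdh19, which were set against the Pcdhb genes. Pcdh19, an X-linked gene whose human counterpart is mutated in an epilepsy seen mostly in girls, measured 9.69, 9.22, 9.72 and 9.75 in cKO mice, against 9.89, 10.06, 10.07 and 10.18 in control mice. All cKO arrays were lower than all control arrays. The difference was -0.46 (SE 0.12, 95% interval -0.73 to -0.18), or 72.9% of control, and did not pass the test (adjusted p = 0.0693). With the letter as a fixed block it did, at -0.53 (adjusted p = 0.00765), and with the letter as a random block it did not, at -0.45 (adjusted p = 0.0823). Among male mice the difference was -0.35 and among female mice, where cKO 2 was the only cKO mouse, -0.82. As cKO 2 was also the only cKO mouse with the letter B, the letter block and the split by sex are not separate results.

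Pcdh10, the OL-protocadherin, measured 9.39, 9.03, 9.47 and 9.47 in cKO mice, against 9.06, 9.57, 9.42 and 9.58 in control mice. The groups overlapped throughout, with cKO 2 and control 1 the lowest of their groups, and the difference was -0.07 (SE 0.14, 95% interval -0.38 to 0.24, adjusted p = 0.87). Pcdh17 measured 11.14, 11.10, 11.14 and 11.15 in cKO mice, against 11.21, 11.14, 11.46 and 11.17 in control mice. Control 2 lay among the cKO arrays and control 3 above all others, and the difference was -0.11 (SE 0.07, 95% interval -0.27 to 0.05, adjusted p = 0.55). The other delta-2 genes were Pcdh8, with a difference of -0.01 (SE 0.08), and Pcdh18, at 0.16 (SE 0.10).

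Outside the delta groups, Pcdh20 had a difference of 0.16 (SE 0.10, adjusted p = 0.527), Pcdh12, a protocadherin of vascular endothelium, 0.08 (SE 0.07), and Pcdh15, a hair-cell tip-link protein, 0.00 (SE 0.07). The less bright Pcdh15 feature was at 0.16 (SE 0.07, limma adjusted p = 0.323 over all features naming 1 gene).

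**Figure D3:**
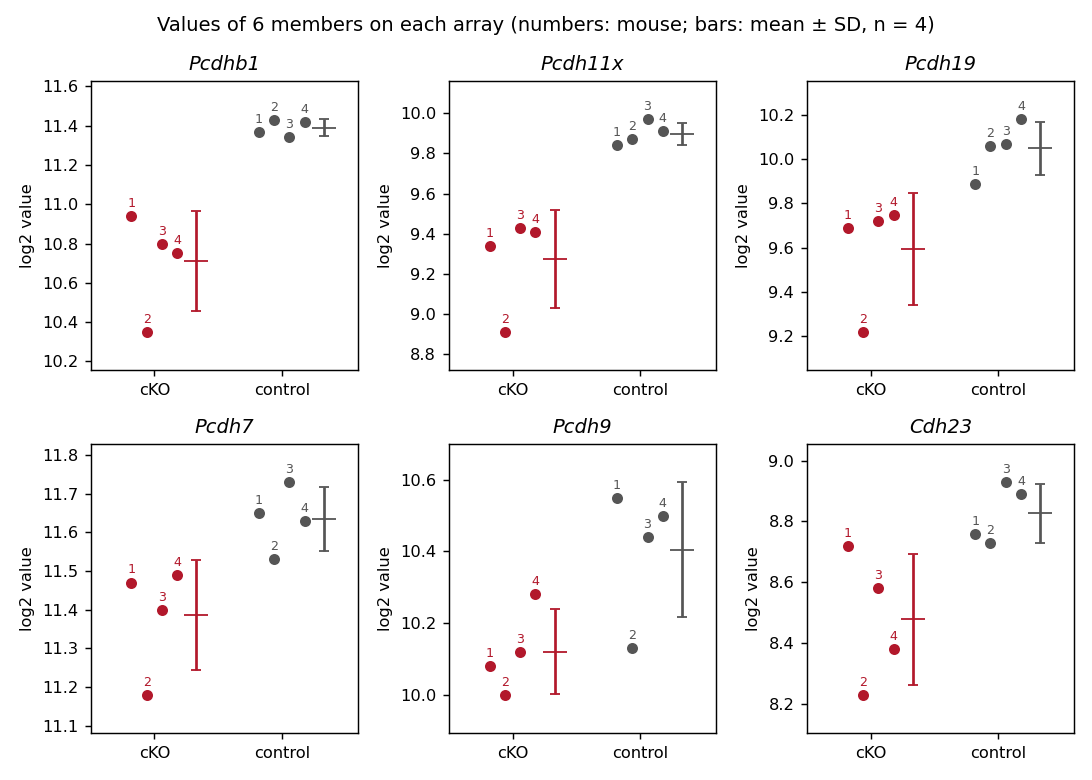
Log2 value of 6 members on each array, with cKO left of control, the mouse number above each point, and a bar for the mean ± SD (n = 4). In Pcdhb1, Pcdh11x, Pcdh19, Pcdh7 and Cdh23 every cKO point is below every control point, and in Pcdh9 control 2 lies among the cKO points.

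Pcdhb1, Pcdh11x and Pcdh19, the members with the lowest differences, were set beside the mature OSN markers array by array. Set against its control mean, the mean of the 17 markers was at -0.55, -1.16, -0.61 and -0.67 in cKO 1 to 4. On those arrays Pcdhb1 was at -0.45, -1.04, -0.59 and -0.64, Pcdh11x at -0.55, -0.98, -0.47 and -0.48, and Pcdh19 at -0.36, -0.83, -0.33 and -0.30. All were lowest in cKO 2, as were Pcdh7 at -0.46, Pcdh9 at -0.40 and Cdh23 at -0.60. Over all 57 members, cKO 2 was the lowest cKO array in 17 and the highest in 21. The mean of the other 21 Pcdhb genes differed from its control mean by -0.07, 0.02, -0.03 and -0.11 in cKO 1 to 4, within the range of the control arrays (-0.11 to 0.09). The mature marker mean differed by -0.75 between the groups, so its subtraction adds a positive shift to every member by construction. With it subtracted on each array, Pcdhb1 was 0.07 higher in cKO than in control mice (SE 0.05, limma adjusted p = 0.57). Pcdh11x was 0.12 higher (SE 0.05, adjusted p = 0.31) and Pcdh19 0.29 higher (SE 0.06, adjusted p = 0.0257). Pcdh7, Pcdh9 and Cdh23 were then 0.50, 0.46 and 0.40 higher. The study reported a smaller average decrease over its own, larger set of mature OSN mRNAs, which was not used for this subtraction. Subtracting a smaller decrease would shift each member less. How near to 0 Pcdhb1, Pcdh11x and Pcdh19 come after subtraction therefore depends on the marker list. Of the marker lists for other cell types of the mucosa, the 13 immature OSN genes differed by -0.09 in their mean with 1 gene lower. In 4 of the 13 every cKO value was below every control value, beside 8.43% of all genes. Gap43, of that list, measured 11.96, 11.41, 11.86 and 11.97 in cKO mice, against 12.13, 12.04, 12.11 and 12.09 in control mice. Its groups were separate, with a difference of -0.29 (SE 0.12, limma adjusted p = 0.268). No gene of the remaining lists passed the threshold. The means of these lists differed by -0.29 for blood (3 genes, 8.70 to 8.92 in cKO and 8.61 to 9.48 in control mice), -0.09 for respiratory ciliated cells, 0.14 for microvillous cells, 0.11 each for dividing cells and macrophages, and 0.01 to 0.08 for OSN progenitors, horizontal basal and sustentacular cells, glia, endothelium, mesenchyme, cartilage and bone, and muscle. Their part in these differences was not tested.

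**Figure D4:**
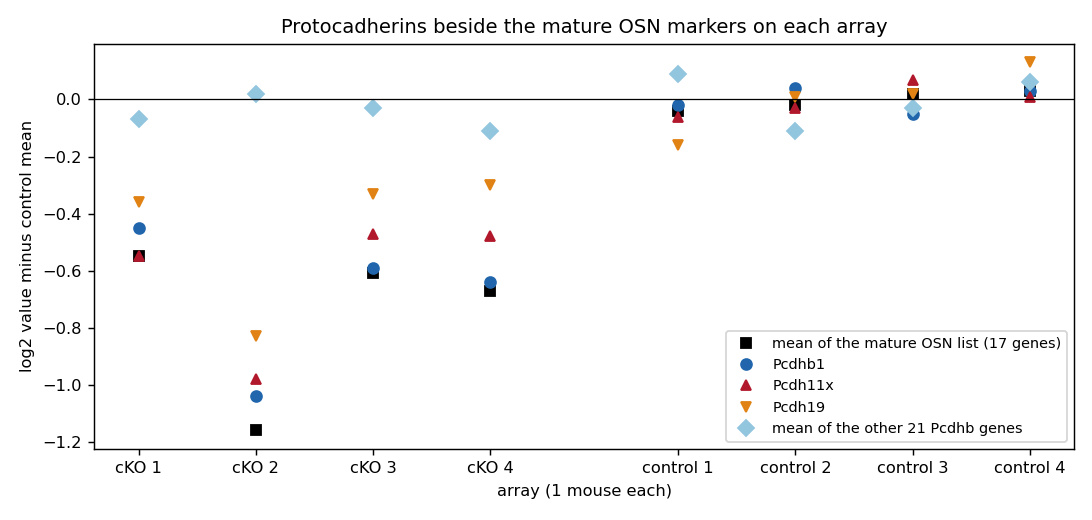
Log2 value minus the control mean on each array, cKO 1 to 4 and then control 1 to 4, for the mean of the 17 mature OSN markers, Pcdhb1, Pcdh11x, Pcdh19 and the mean of the other 21 Pcdhb genes. The first 4 are lowest in cKO 2, at -1.16, -1.04, -0.98 and -0.83, where the other Pcdhb mean is 0.02.

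None of the 23 Cdh genes rose or fell. Cdh23, which joins Pcdh15 in the tip link of hair cells, came closest. It measured 8.72, 8.23, 8.58 and 8.38 in cKO mice, against 8.76, 8.73, 8.93 and 8.89 in control mice. The highest cKO array lay just below the lowest control array, and the difference was -0.35 (SE 0.10), or 78.5% of control (adjusted p = 0.114).

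The classical type I cadherins had a median difference of 0.04 over 5 genes. Cdh1 (E-cadherin, of epithelia) had a difference of 0.06 (95% interval -0.04 to 0.17, adjusted p = 0.601), Cdh2 (N-cadherin, of neurons and mesenchyme) 0.04 (-0.06 to 0.15, adjusted p = 0.735) and Cdh3 (P-cadherin, of basal epithelia) 0.18 (SE 0.08, adjusted p = 0.362). The 13 type II cadherins had a median of 0.12. Their mean was 8.36 in cKO 4, 8.02 to 8.12 on the other cKO arrays and 7.94 to 8.20 in control mice. Cdh8 and Cdh10, brain type II cadherins, had the highest differences of all Cdh genes, 0.32 (SE 0.23, adjusted p = 0.588) and 0.31 (SE 0.16, adjusted p = 0.44). Both leaned on 1 array: Cdh8 read 8.31 in cKO 4 and 7.20 to 7.54 on the other cKO arrays, against 7.13 to 7.69 in control mice, and without cKO 4 the differences were 0.10 and 0.16. Cdh18 had the lowest type II difference, -0.26 (SE 0.17, adjusted p = 0.565), which its less bright feature did not share (0.00) and which was -0.11 (SE 0.13) without cKO 2. Cdh20, at 0.17 (SE 0.08), had an adjusted p of 0.362. Cdh5 (VE-cadherin, of endothelium) was at -0.08 (95% interval -0.33 to 0.18, adjusted p = 0.823), and Cdh11, the cadherin of mesenchyme, at -0.01 (SE 0.09).

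The 34 members that the naming rule left out had differences from -0.11 to 0.19. Among them, Cdh15 (M-cadherin, of muscle) was at -0.07 and Cdh19, of neural-crest glia, at -0.05.

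**Figure D5:**
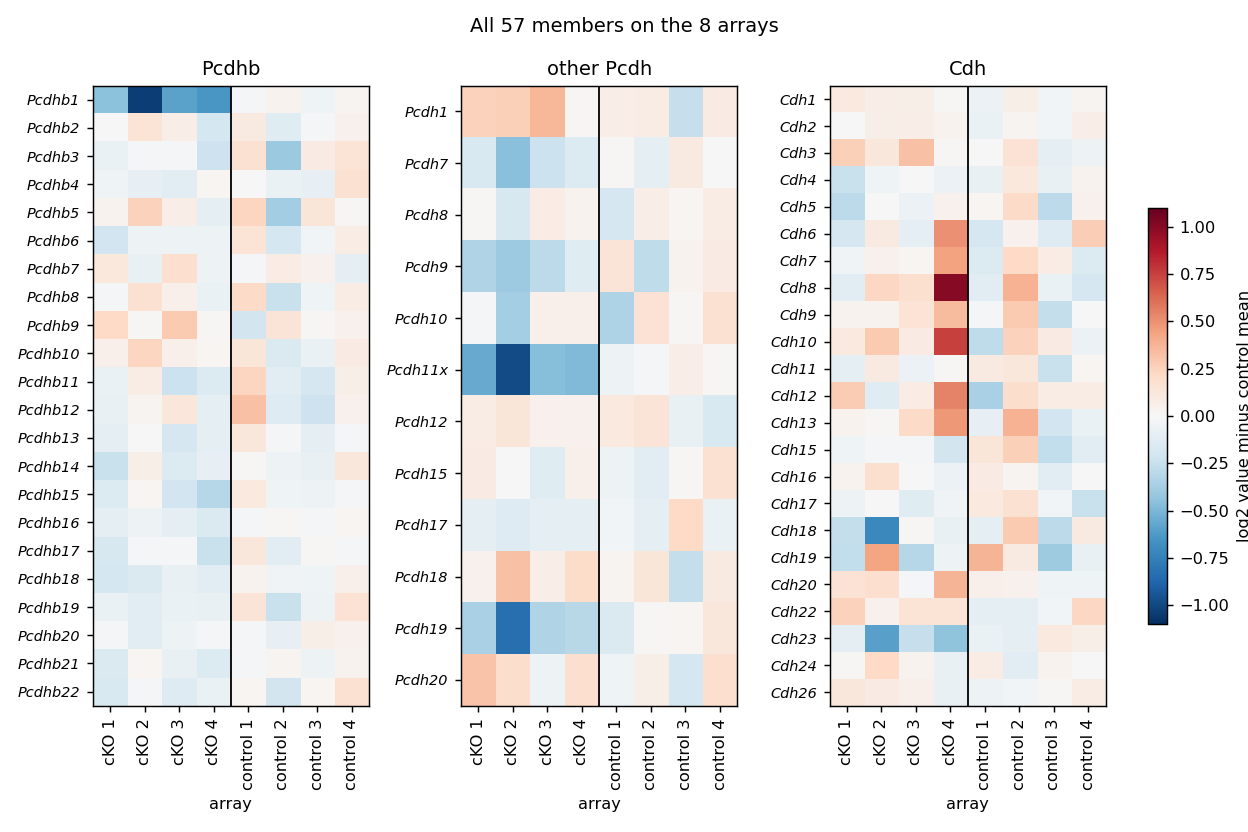
Log2 value minus the control mean (colour, red above and blue below) of all 57 members (rows, in 3 panels) on cKO 1 to 4 and control 1 to 4 (columns). The darkest blue cells, all in cKO 2, belong to Pcdhb1, Pcdh11x and Pcdh19, and the darkest red cell is Cdh8 in cKO 4.

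The promoters of Pcdh19, Pcdh7 and Cdh23, the members with separate groups for which RefSeq windows were at hand, are printed to show the sequence before their start sites. Each is the 250 bases upstream (GRCm38.p6, RefSeq), read in the direction of the gene, with CG dinucleotides in capitals: Pcdh19 at chrX:133688994-133689243 (minus strand), Pcdh7 at chr5:57717831-57718080 (plus strand) and Cdh23 at chr10:60696491-60696740 (minus strand).
Pcdh19: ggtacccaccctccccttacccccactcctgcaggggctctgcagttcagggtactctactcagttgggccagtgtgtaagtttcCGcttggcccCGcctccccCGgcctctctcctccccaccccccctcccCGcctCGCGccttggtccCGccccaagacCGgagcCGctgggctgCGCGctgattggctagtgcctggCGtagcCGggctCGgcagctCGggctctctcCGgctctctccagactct
Pcdh7: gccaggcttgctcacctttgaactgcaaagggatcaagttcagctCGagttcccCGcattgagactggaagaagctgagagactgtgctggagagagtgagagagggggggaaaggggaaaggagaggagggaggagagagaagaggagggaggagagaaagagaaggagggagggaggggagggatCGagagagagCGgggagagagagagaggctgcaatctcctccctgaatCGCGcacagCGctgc
Cdh23: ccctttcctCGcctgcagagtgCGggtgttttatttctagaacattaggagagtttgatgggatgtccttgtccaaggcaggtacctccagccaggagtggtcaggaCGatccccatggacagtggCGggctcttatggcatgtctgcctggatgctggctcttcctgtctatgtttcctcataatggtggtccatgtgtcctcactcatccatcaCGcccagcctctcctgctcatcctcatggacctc
They hold 16, 7 and 5 CG dinucleotides, against a median of 6 over 32851 windows, and 25.4%, 46.3% and 55.6% of all windows hold as many or more. The table matched 22 of the 57 members with 25 windows. The homeodomain cores TAATTA and TAATTG, which LIM-homeodomain factors such as Lhx2 can bind, were searched on both strands: TAATTA was in 1 member window (Cdh7) and in 4.84% of all windows, and TAATTG in 3 (Cdh20, Cdh26 and Pcdh15) and in 7.17%.

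Lists of genes that work with the members were set beside them. Of the 15 measured catenins and junction adaptors none rose or fell (median 0.03, 0 at an unadjusted p under 0.05), and the smallest p belonged to Pkp1, a desmosomal plakophilin, with a difference of 0.15 (adjusted p = 0.343). Of 15 regulators of the clustered genes none changed either (median 0.03, 0 at an unadjusted p under 0.05). Of 16 effectors none passed the test, with 1 lower at an unadjusted p under 0.05. It was Psen2, a catalytic subunit of the gamma-secretase that cleaves cadherins, which had 10.88, 10.56, 10.81 and 10.73 in cKO mice and 11.02, 11.00, 11.05 and 10.96 in control mice, separate groups with a difference of -0.27 (SE 0.07, adjusted p = 0.0674).

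Of 24 other members of the cadherin superfamily, 1 fell: Clstn2, a calsyntenin of synapses. It measured 12.28, 12.22, 12.29 and 12.27 in cKO mice, against 12.51, 12.51, 12.53 and 12.60 in control mice. The difference was -0.27 (SE 0.04, adjusted p = 0.00745), and it missed the threshold with any 1 array left out (adjusted p from 0.0129 to 0.0266).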

How the data were processed

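The deposited table holds log2 intensity values of 28312 transcript clusters, made by the authors with Affymetrix Expression Console. Its version and how probes were summarized: not given in the sources used here. Names came from the platform annotation: 21759 clusters had 1 symbol, 1605 several and 4948 none, and 21668 single-symbol clusters matched the gene table by Entrez identifier, with 0 symbols changed. The cluster with the highest mean stood for each of 19928 genes. Groups came from the labels. limma 3.58.1 in R 4.3.3 compared 4 cKO with 4 control arrays by lmFit and eBayes, with Benjamini-Hochberg adjustment over all genes and a threshold of 0.01. The fit was checked on simulated data. No pseudocount or filter was used, and array precision is limited by their number. Genes were named by a rule: Lhx2, Omp, Gap43, Pcdh10, Pcdh17, Pcdh19, Cdh1, Cdh2 and Cdh5, every member with adjusted p under 0.05, and in each family those with the smallest p or the largest differences. For the context lists, genes past the threshold and those with the smallest p were added. Other names were given after their values were seen. Members and gene lists were chosen with earlier results of these data known. Replicate mice were numbered in accession order. The sources do not say what the letter in the sample titles stands for. Sex was read from sex-linked mRNAs.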

Additional observations from a re-analysis of the deposited data

Results flagged for a closer look

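Of 68 groups of 4 arrays tested for a single far value (by Dixon's ratio of the gap to the nearest array over the group's range), 8 had one. The rate by chance, about 1 in 20, holds for independent groups. These groups share the same 8 mice, and many of the genes were named for their values, so 8 of 68 cannot be judged against it. In 6 of the 8 the far array was cKO 2. It was lowest for Lhx2, at 12.55 with the other cKO arrays at 13.01 to 13.03, for Omp, at 12.00 with the others at 12.59 to 12.68, for Pcdh19, at 9.22 with the others at 9.69 to 9.75, and for Pcdh11x, at 8.91 with the others at 9.34 to 9.43. It was highest for Pcdhb10, at 7.76 with the others at 7.54 to 7.58, and for Celsr2, a planar polarity cadherin, at 9.75 with the others at 9.51 to 9.55. Among control arrays, control 3 was lowest for Pcdh1, at 7.81 with the others at 8.14 to 8.15, and control 4 was lowest for Pkp1, at 8.51 with the others at 8.69 to 8.71.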

How the results depend on the processing

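The count of lower members, 1 as reported, was 0 with the methods' t-test, quantile normalization, centring on genes that encode no chemoreceptor, the title letter as a random block, Lhx2fl/+ controls only, 123Cre:Lhx2fl/+ controls only, or the mature OSN mean subtracted from the members. It was 2 (Pcdhb1 and Pcdh11x) with trend and robust variance, sex as a block, array weights or an adjusted p under 0.05, 3 (those and Pcdh19) with the letter as a fixed block, and 0 to 2 with 1 array left out at a time. Without cKO 2 it was 2, without cKO 1 it was 1, and without any other array it was 0. The cause was not tested. The count of higher members stayed at 0 except after the subtraction of the mature OSN mean, which adds a positive shift by its construction and gave 14. That subtraction moved the median difference to 0.66 in Pcdhb, 0.71 in other protocadherins and 0.80 in Cdh genes, and the differences to 0.68 in Pcdh10, 0.64 in Pcdh17, 0.29 in Pcdh19, 0.07 in Pcdhb1, 0.12 in Pcdh11x, 0.61 in Pcdhb18, 0.64 in Pcdhb16, 0.59 in Pcdhb15, 0.50 in Pcdh7, 0.46 in Pcdh9, 0.40 in Cdh23, 0.49 in Cdh18 and 0.67 in Cdh5. The median of the other protocadherins was -0.12 with 123Cre:Lhx2fl/+ controls only, where Cdh5 was at 0.04, and -0.10 to 0.02 with 1 array left out (0.02 without cKO 2). With 1 array left out the medians were -0.11 to -0.04 in Pcdhb and 0.04 to 0.07 in Cdh genes. Pcdh10 was at 0.02 with Lhx2fl/+ controls only and at -0.18 to 0.03 with 1 array left out (0.03 without cKO 2). Pcdh19 passed the threshold with the letter as a fixed block, at -0.53. Over all genes, the 412 that fell became 0 with the methods' t-test or either control genotype alone. They became 30 to 657 with 1 array left out (30 without control 1, 657 without cKO 2). The 12 that rose became 1 with that t-test, 0 with either control genotype alone and 0 to 19 with 1 array left out. After the subtraction, which changed the values of the members only, 26 rose, of which 14 were members. No paired analysis was possible because the labels give no replicate numbers that tie a cKO mouse to a control mouse.

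With 4 arrays a group, the SE of a difference, 0.09 at the median over members, limits what can be told from 0. Of the members, 10 had a mean level below the lower quartile of all genes (7.52), where array signal is least reliable. Cdh8, Cdh10, Cdh20 and Pcdh20 were among these.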
